A study of Sus scrofa with 96 samples.

Results

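Articular cartilage of minipig knees left untreated after ACL transection (ACLT) was compared with cartilage of intact contralateral knees (CON), 52 weeks after surgery. The comparison held 23 of the 96 libraries of the series: the cartilage libraries ACLT 1 to 11 and CON 1 to 12. They were chosen by tissue and treatment label, and cartilage library ACLT 12 was left out because its knee is missing from the study's list of knees. All animals were adolescent Yucatan minipigs, females and castrated males, with unilateral ACL transection. ACLT animals received no further treatment, and in the other surgical groups the ligament was reconstructed (RECON) or repaired with an extracellular matrix scaffold (REPAIR). The CON knees were contralateral knees drawn from all 3 surgical groups and had no sham surgery, so each CON animal had also been operated on in its other knee. Of the ACLT animals compared, 4 also gave a CON knee. Cartilage came from the medial femoral condyle, from several osteochondral biopsies of a knee with the bone removed, and total RNA was sequenced after ribosomal RNA depletion.

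Articular cartilage is an avascular tissue whose chondrocytes maintain a matrix of type II collagen and aggrecan. Rupture of the ACL destabilises the knee and is a common starting point of posttraumatic osteoarthritis, in which the matrix is lost over months to years. Synovium, the lining of the joint, holds fibroblasts, macrophages and vessels that healthy cartilage lacks. The deposited tables give Ensembl transcript identifiers without gene names, and the reference tables used here matched 0 of the 46295 identifiers to a gene, so the transcripts are described by identifier, level and tissue, and neither gene functions nor named cell markers could be checked.

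The 23 cartilage libraries held 11491853 to 21750615 counts (median 15296912) and 26040 to 29493 transcripts with a count. The tissue label could be checked with lists drawn from the RECON and REPAIR knees, whose libraries enter no ACLT or CON value. Among the transcripts tested in cartilage, these were 793 at least 8-fold higher in cartilage than in synovium and 362 at least 8-fold higher in synovium (adjusted p-value under 0.05, edgeR; 32.7% of transcripts passed that p-value as higher in cartilage and 29.9% as higher in synovium, 62.6% in all, before the 8-fold limit). The cartilage-enriched list took 19.4% to 46.5% of the counts of the 23 cartilage libraries and 0.374% to 1.48% in the synovium libraries of the same knees. The synovium-enriched list took 0.150% to 2.93% in cartilage and 7.00% to 18.3% in synovium. The tissues did not overlap on either list.

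No transcript passed the threshold between ACLT and CON cartilage. Of 23292 transcripts tested with edgeR's quasi-likelihood test, 0 had a Benjamini-Hochberg adjusted p-value under 0.05 (0% of those tested), and the smallest adjusted p-value was 0.283. At an unadjusted p-value under 0.05 there were 1271 transcripts, or 5.46%, beside the 5% that the threshold itself allows when no transcript differs. These comprised 655 higher in ACLT (2.81%) and 616 lower (2.64%). DESeq2 on the same transcripts called 50 at an adjusted p-value under 0.05 (0.215%), 24 higher (0.103%) and 26 lower (0.112%), with 1473 (6.32%) at an unadjusted p-value under 0.05. limma-voom with quality weights called 0 (1508 unadjusted) and limma-trend on log2(TPM + 1) called 0 (1927 unadjusted).

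**Figure D1:**
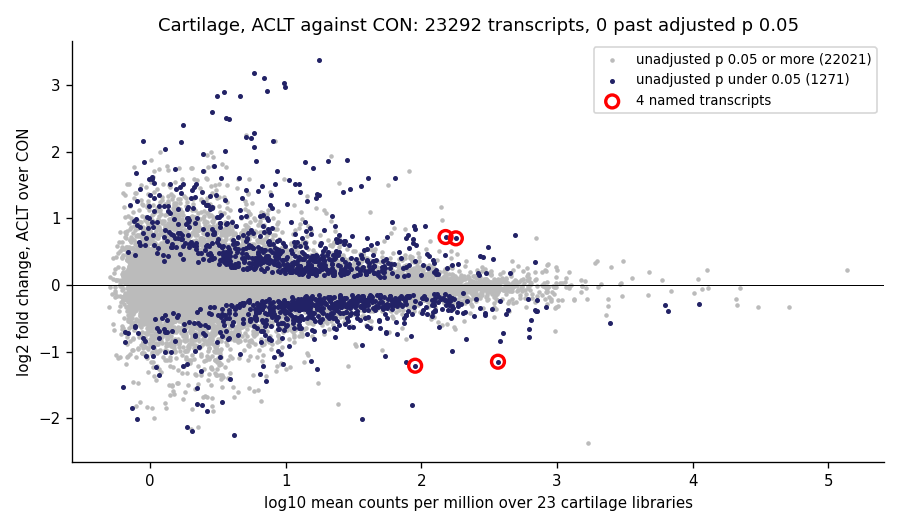
Each point is 1 of 23292 transcripts, with the log10 mean CPM (counts scaled to a common library size) of the 23 cartilage libraries on the x axis and the log2 fold change of ACLT over CON on the y axis. The 1271 dark points have an unadjusted p-value under 0.05, the red rings mark the 4 transcripts named in the text, and most points at 10 CPM or more lie close to 0.

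The fold changes centred on 0, with a median log2 fold change of 0.0002 over all transcripts tested and 90% of them between -0.46 and 0.53. A change of 2-fold or more in either direction was measured for 506 transcripts (311 higher in ACLT), of which 394 had a mean of 1 to 10 CPM and 3 had 100 CPM or more. The 95% confidence interval from limma-voom lay wholly between a 2-fold decrease and a 2-fold increase for 16933 transcripts (72.7%), with a median width of 0.72 on the log2 scale. That share depended on the level: it was 25.2% under 1 CPM, 59.7% at 1 to 10 CPM, 92.6% at 10 to 100 CPM and 95.8% of the 992 transcripts at 100 CPM or more. A 2-fold change in an abundant cartilage transcript would therefore lie outside most of these intervals, whereas in many transcripts below 10 CPM it would not. The transcripts at 100 CPM or more had an unadjusted p-value under 0.05 in 10.7% of cases (106 of 992), and those under 1 CPM in 3.25%. The 4 classes from low to high level had median log2 fold changes of 0.06, 0.02, -0.01 and -0.04.

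Most of the 10 most abundant cartilage transcripts showed similarly small differences. The 10 with the highest mean TPM (a scale per transcript length) had log2 fold changes from -0.57 to 0.70, 3 of them above 0, and 8 had an interval wholly inside the 2-fold window. The most abundant had a median of 50359 TPM in CON (range 21338 to 101458) and 57839 TPM in ACLT (range 26824 to 110337), so its level varied more between knees of 1 group than between the groups (log2 fold change 0.22, adjusted p-value 0.999, edgeR). The ninth had the log2 fold change of 0.70, with a median of 3529 TPM in CON (433 to 39336) and 9131 TPM in ACLT (2155 to 33682). Its limma-voom interval ran from 0.27 to 2.84, and its adjusted p-value from edgeR was 0.999. The tenth had 10744 TPM in CON (7857 to 14799) and 7405 TPM in ACLT (4383 to 9587). Its log2 fold change was -0.57 with an adjusted p-value of 0.330 from edgeR, and the groups overlapped.

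The 4 transcripts named below are the 2 higher and the 2 lower in ACLT with the smallest p-values among those with at least 1 CPM in both groups. The naming rule asked for transcripts past the threshold, and since there were none, they were chosen after their values were seen and are a description of the extremes of 23292 tests.

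ENSSSCT00000054680.3 (3009 bases) had the smallest p-value of all and a lower mean in ACLT. CON cartilage ranged from 265 CPM (CON 6) to 727 CPM (CON 11) around a median of 490, and ACLT cartilage from 83.0 CPM (ACLT 4) to 324 CPM (ACLT 3) around a median of 248. All 11 ACLT knees lay below the CON median and 7 lay below the lowest CON knee, while the groups overlapped through CON 1 and CON 6. The log2 fold change was -1.15 ± 0.21 (SE), from 498 ± 165 to 224 ± 70.9 CPM (mean ± SD, n = 12 and 11), with an unadjusted p-value of 1.2e-05 and an adjusted p-value of 0.283 from edgeR. It ranked 289 by mean TPM in cartilage.

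ENSSSCT00000073328.2 (1814 bases) had the smallest p-value but one among the lower transcripts. CON cartilage ranged from 59.4 to 214 CPM (median 114) and ACLT cartilage from 18.1 to 88.8 CPM (median 55.5), with CON 6 and ACLT 4 again the lowest and ACLT 3 again the highest ACLT knee, while the highest CON knee was CON 9 instead of CON 11. All 11 ACLT knees lay below the CON median, and 7 below the lowest CON knee. The log2 fold change was -1.21 ± 0.24 (SE), with an adjusted p-value of 0.330 from edgeR. The ratio of the 2 transcripts stayed between 3.39 and 4.63 in all 23 libraries (median 4.22). Whether they share reads was not tested, and the 2 differences may not be independent.

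ENSSSCT00000089114.1 (9111 bases) had a higher mean in ACLT. CON cartilage ranged from 93.9 to 209 CPM (median 122) and ACLT cartilage from 150 to 348 CPM (median 212). All 11 ACLT knees exceeded the CON median and 6 exceeded the highest CON knee, and 9 of the 12 CON knees lay below the lowest ACLT knee. The log2 fold change was 0.70 ± 0.15 (SE), with an adjusted p-value of 0.330 from edgeR. Knee ACLT 12 read 80.0 CPM when scaled with all 48 cartilage libraries, below the lowest CON knee on that scale (91.6 CPM).

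ENSSSCT00000004890.5 (6601 bases) also had a higher mean in ACLT. It ranged from 74.6 to 164 CPM in CON (median 116) and from 111 to 268 CPM in ACLT (median 172). The lowest ACLT knee, ACLT 6, was the only 1 of 11 below the CON median, and 7 exceeded the highest CON knee. The log2 fold change was 0.72 ± 0.15 (SE), with an adjusted p-value of 0.330 from edgeR. It was the only one of the 4 past the threshold when all 94 libraries were in the fit (adjusted p-value 0.00521), a fit that called 9 transcripts, all higher in ACLT. DESeq2 called all 4, with adjusted p-values from 0.000312 to 0.00818.

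**Figure D2:**
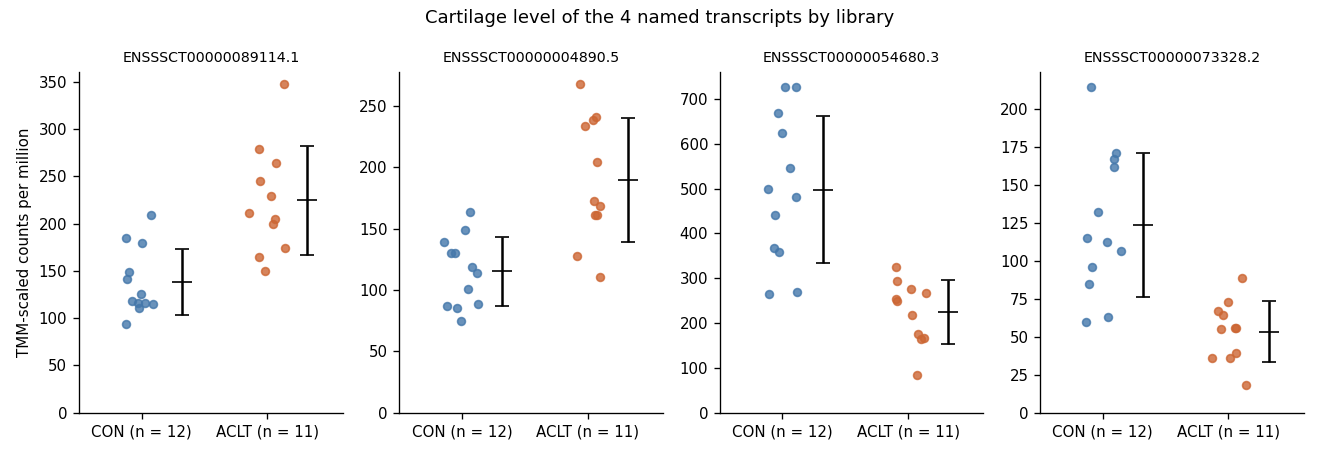
Each panel shows TMM-scaled CPM (y axis, starting at 0) of 1 named transcript in the 12 CON and 11 ACLT cartilage libraries, with a bar for the mean ± SD of each group. The 2 left transcripts sit higher and the 2 right transcripts lower in ACLT, and the groups overlap in every panel.

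In the 4 animals that gave both knees, the ACLT knee lay on the same side of the CON knee as the group means for all 4 transcripts. ENSSSCT00000054680.3 read 482 and 218, 669 and 175, 270 and 165, and 498 and 268 CPM in the CON and ACLT knee of each animal. ENSSSCT00000073328.2 was lower in ACLT by log2 differences of -0.95, -2.09, -0.82 and -0.80. The within-animal log2 differences of ENSSSCT00000089114.1 ran from 0.38 to 1.13 and those of ENSSSCT00000004890.5 from 0.40 to 0.77. These animals are part of the groups that chose the transcripts, and 4 pairs cannot give a p-value below 0.12 in a two-sided exact sign test, so no test was made.

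RECON and REPAIR cartilage, which took no part in choosing the 4 transcripts, had medians on the same side of the CON median as ACLT for all 4. For ENSSSCT00000054680.3 the median was 234 CPM in RECON (103 to 561, n = 12) and 206 CPM in REPAIR (61.4 to 817, n = 12). ENSSSCT00000073328.2 had medians of 57.4 CPM in RECON and 52.2 CPM in REPAIR. The medians of ENSSSCT00000089114.1 were 158 and 192 CPM, and those of ENSSSCT00000004890.5 were 195 and 173 CPM. These levels were scaled with all 48 cartilage libraries, and their differences from CON were not tested here because CON is shared with the ACLT comparison. The same CON knees helped choose the 4 transcripts, which favours the ACLT side for any group set against them. The shared side is therefore no independent support.

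Synovium of the same knees gave many more calls for ACLT against CON. The same 23292 transcripts, tested the same way, gave 2017 past an adjusted p-value of 0.05 (8.66%), 1108 higher (4.76%) and 909 lower (3.9%) in ACLT. The number of libraries was equal, and the common biological coefficient of variation was 0.527 in cartilage and 0.563 in synovium. The paper reports a lower mean RIN and a lower share of mapped reads in operated synovium, all surgical groups pooled, than in CON synovium. In cartilage it reports a lower mean RIN as well, but a similar mapped share. Whether RNA quality plays a part in the synovium calls was not tested. The median SD of log2 CPM between cartilage libraries was 0.38 in CON and 0.38 in ACLT, and 48.4% of transcripts varied more in ACLT. Cartilage p-values were spread almost evenly, with 1065 to 1271 transcripts in each bin of 0.05, whereas 5524 synovium p-values (23.7%) lay under 0.05.

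**Figure D3:**
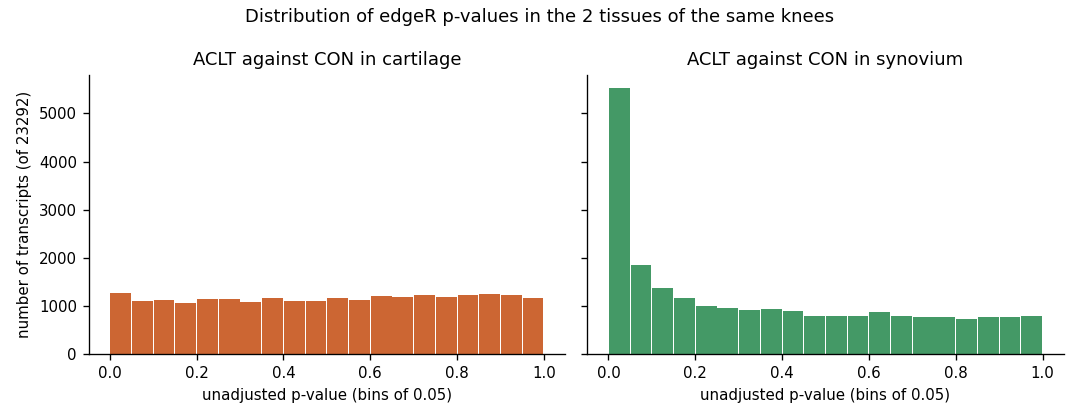
The bars count transcripts (y axis) in 20 bins of the unadjusted edgeR p-value (x axis) for ACLT against CON, in cartilage on the left and synovium on the right. The lowest bin holds 1271 transcripts in cartilage and 5524 in synovium.

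Transcripts that changed in ACLT synovium had median fold changes near 0 in ACLT cartilage. The 1108 higher in synovium had a median log2 fold change of 0.61 there and 0.02 in cartilage, where 595 were above 0. In cartilage, 57 of them were higher (5.14%) and 36 lower (3.25%) at an unadjusted p-value under 0.05, beside 2.81% and 2.64% of all transcripts tested. The 909 lower in synovium had a median of -0.54 there and 0.02 in cartilage, with 42 higher and 25 lower (4.62% and 2.75%).

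The difference between the tissues was tested as an interaction, the ACLT change in cartilage minus that in synovium. The fit held no term for the knee that pairs the 2 tissues, and a fit with the knee as a block called 800 transcripts. Without that block, the interaction passed an adjusted p-value of 0.05 for 708 transcripts (3.04%, edgeR), 339 (1.46%) with the more positive change in cartilage and 369 (1.58%) with the more negative. Of these, 561 were also called in synovium and 0 in cartilage, where 187 had an unadjusted p-value under 0.05. The 369 had a median log2 fold change of 0.75 in synovium and -0.14 in cartilage, and the 339 had -0.60 and 0.18. The sign differed between the tissues for 619 of the 708 (87.4%), beside 52.0% of all transcripts tested, but choosing transcripts by the difference of the 2 changes favours opposite signs. Of the 708, 77 were called in synovium with the opposite sign in cartilage at an unadjusted p-value under 0.05. Among all 23292 transcripts tested there were 78 such transcripts, and the same choice favours this concentration.

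**Figure D4:**
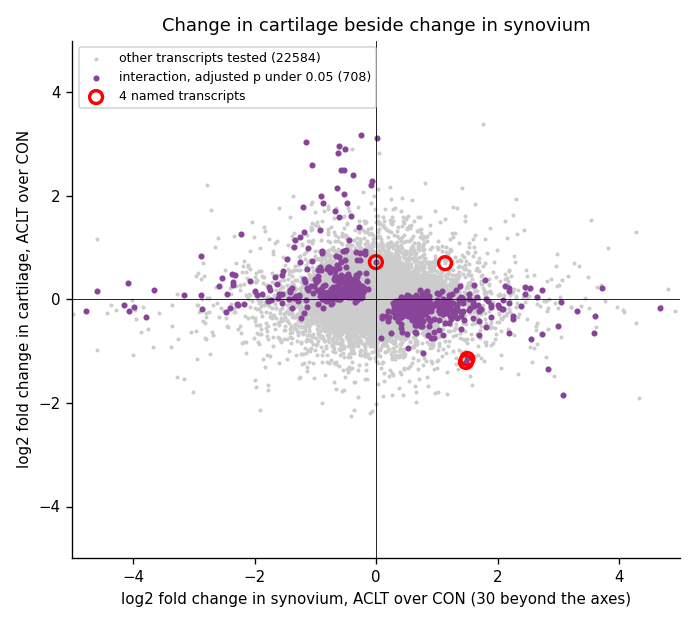
Each point is a transcript, with its log2 fold change of ACLT over CON in synovium on the x axis and in cartilage on the y axis (30 transcripts lie beyond the axes). The 708 purple points, for which the tissue difference passed an adjusted p-value of 0.05, spread mainly along the synovium axis.

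Among the named transcripts, both lower ones rose in synovium. ENSSSCT00000054680.3, a cartilage-enriched transcript, went from a median of 12.3 CPM in CON synovium (2.08 to 54.3) to 42.9 CPM in ACLT synovium (19.4 to 61.3), a log2 fold change of 1.50 with an adjusted p-value of 0.0116 from edgeR. Its change in cartilage minus that in synovium was -2.64. ENSSSCT00000073328.2 went from 2.00 to 7.60 CPM (median) in synovium, with a log2 fold change of 1.48 (adjusted p-value 0.018, edgeR) and a tissue difference of -2.67. ENSSSCT00000004890.5 was more abundant in synovium, at medians of 489 and 524 CPM in CON and ACLT, with a log2 fold change of -0.003 there and a tissue difference of 0.73, nearly all of it the cartilage change of 0.72. ENSSSCT00000089114.1 had a log2 fold change of 1.14 in synovium, short of the threshold (adjusted p-value 0.265, edgeR), and a tissue difference of -0.42. Each tissue difference contains the cartilage change by which the transcript was named, so it is given as a description. The interaction test of these transcripts is no independent support.

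Transcripts that are more abundant in synovium than in cartilage had fold changes mostly above 0 in ACLT cartilage. This comparison was added after the data were seen. Of the 362 synovium-enriched transcripts, 312 had a fold change above 0 and the median log2 fold change was 0.58 (1.50-fold), beside 50.0% above 0 and a median of 0.0002 for all transcripts tested. At an unadjusted p-value under 0.05, 86 were higher (23.8%) and 2 lower (0.552%), against 2.81% and 2.64% of all transcripts tested, and 0 passed the adjusted threshold. The 362 transcripts were measured in the same 23 libraries, so they are not independent replicates of the difference. The median grew with the enrichment asked for: it was 0.33 for 934 transcripts at 4-fold and 0.91 for 120 at 16-fold. With limma-voom the median was 0.35. These 362 are only the members with enough counts in cartilage to be tested, and a transcript could reach that minimum through the ACLT libraries. Chosen on the RECON and REPAIR libraries alone, the list had 1592 members, of which 347 passed the cartilage minimum, 1208 had counts below it and 37 had no count in the 23 libraries. Without the minimum, 1272 of the 1555 counted members were above 0, with a median log2 fold change of 0.85, beside 51.2% and 0.008 for all 39068 transcripts counted. Of the 1208 members below the minimum, 968 were above 0 (median 0.99), beside 8699 of all 15776 counted transcripts below it (median 0.13). The 1592 members took 0.217% to 2.82% of counts in CON (median 0.458%) and 0.178% to 2.43% in ACLT (median 0.851%). The 793 cartilage-enriched transcripts had a median of -0.09, with 311 above 0, 24 higher (3.03%) and 43 lower (5.42%). In bulk tissue, a change in the number of cells of a type and a change in RNA per cell cannot be told apart.

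These fold changes were uneven between knees. In each library, the median over the 362 transcripts of log2 CPM minus the CON mean ran from -0.35 to 0.53 in CON and from -0.59 to 1.37 in ACLT (SD 0.31 and 0.72). ACLT 4, 9, 1, 6 and 11 lay above the highest CON knee, ACLT 7 and 10 lay below the lowest, and the other 4 lay between. ACLT 11 (0.5311) was almost level with CON 1 (0.5304), and ACLT 7 (-0.364) lay close to CON 8 (-0.346). The share of counts taken by the list was 0.183% to 2.93% in CON (median 0.415%, highest in CON 1) and 0.150% to 2.18% in ACLT (median 0.884%, highest in ACLT 4), so the groups overlapped on this measure as well. ACLT 4 was also the lowest knee for the cartilage-enriched list, at -0.38 against -0.15 to 0.17 in CON. The median fold change of the 362 transcripts was 0.43 without ACLT 4 and 0.49 without ACLT 9. The same list took 7.00% to 14.0% of counts in CON synovium and 8.53% to 18.3% in ACLT synovium. Whether synovial tissue or RNA in the biopsies plays a part was not tested.

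**Figure D5:**
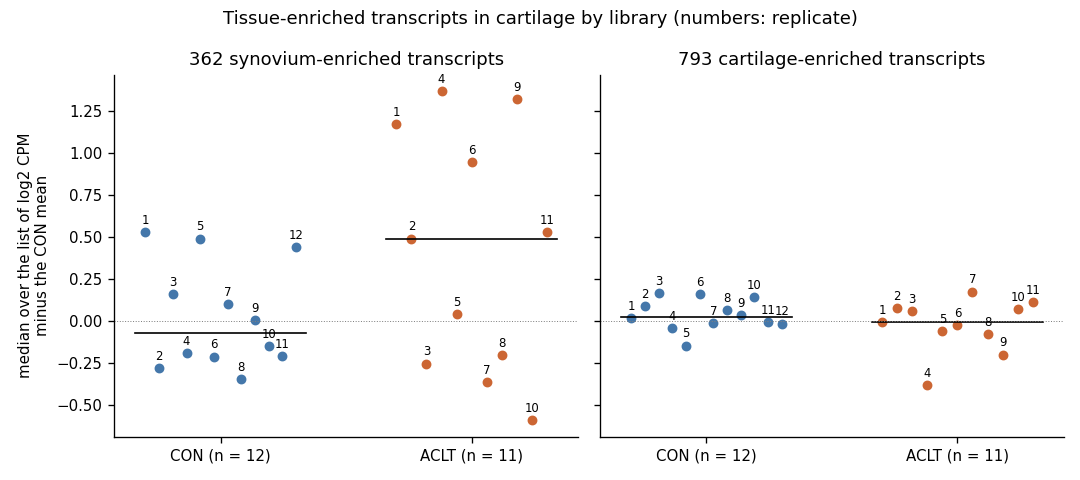
Each point is a cartilage library, numbered by replicate, and the y axis is the median over a list of log2 CPM minus the CON mean; the black line is the group median. For the 362 synovium-enriched transcripts ACLT knees spread from -0.59 to 1.37 and CON knees from -0.35 to 0.53, while the 793 cartilage-enriched transcripts stay within -0.38 to 0.17.

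The largest positive fold changes lay mostly in the same list. Of the 25 transcripts at a log2 fold change of 2 or more, 19 were synovium-enriched and 0 cartilage-enriched, where these lists held 1.55% and 3.40% of all transcripts tested. Their median level in RECON and REPAIR knees was 119 CPM in synovium and 5.18 CPM in cartilage. Summed over the 25, CON cartilage held 9.99 to 57.9 CPM (median 39.7) and ACLT cartilage 35.0 to 698 CPM (median 140). ACLT 9 (698 CPM) and ACLT 4 (689 CPM) stood highest, and they held the highest value of 13 and 7 of the 25 transcripts, whereas ACLT 3, 8 and 10 lay within the CON range. A single library held up to 76.1% of all CPM of 1 such transcript. Without ACLT 9 the median log2 fold change of the 25 was 2.06, and without ACLT 4 it was 2.17, compared with 2.40 over all libraries. A log2 fold change of -2 or less was measured for 8 transcripts, 4 of them cartilage-enriched and 0 synovium-enriched, at a median of 2.14 CPM in cartilage. Both sets were chosen by the fold change itself and are given without a test.

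DESeq2's calls fell in both lists. Of its 24 transcripts higher in ACLT, with log2 fold changes of 0.16 to 3.11, 8 were synovium-enriched (33.3%) and 3 cartilage-enriched (12.5%), beside 1.55% and 3.40% of all transcripts tested. Of its 26 lower transcripts, from -2.01 to -0.22, 0 were synovium-enriched and 8 cartilage-enriched (30.8%). All 50 had an edgeR p-value under 0.05 before adjustment, the largest being 0.00173. Both tests used the same counts, so the edgeR values are no independent support for the DESeq2 calls. Of the 9 transcripts called in the fit of all 94 libraries, 6 were synovium-enriched, and 5 were among the DESeq2 calls. The other libraries lend this fit their estimate of the spread.

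No whole-library measure separated the groups. Total count, transcripts with a count, the share of the 10 most abundant transcripts (26.9% to 38.4% in CON and 23.8% to 39.3% in ACLT), the share in transcripts of at most 300 bases, the count-weighted median effective length and the first 2 principal components were each compared with a two-sided permutation test. The smallest of these 7 p-values was 0.219 (0.745 after Benjamini-Hochberg adjustment). The first component carried 9.60% of the variance of the 500 most variable transcripts, with ACLT scores from -26.7 to 28.4 and CON scores from -15.3 to 21.3. Between the 2 knees of the same animal, log2 CPM differed by a root mean square of 0.883 to 1.03 in the 4 animals, beside a median of 0.999 for an ACLT and a CON knee of different animals, 0.978 between 2 CON knees and 1.00 between 2 ACLT knees. ACLT and CON cartilage thus lay about as far apart as CON cartilage did from other CON cartilage. By transcript length, median log2 fold changes ran from -0.02 for 301 to 1000 bases to 0.03 above 8000 bases.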

How the data were processed

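The labels gave tissue and treatment, and the study's list of knees gave the animals, RIN and sex. The authors made the expected counts (Salmon 1.8.0 against Sscrofa11.1 transcripts, per the labels) and deposited them without scaling between libraries, with TPM values that the authors' Salmon runs gave and that were used here for levels and 1 alternative. Counts were rounded to whole numbers. Transcripts passing filterByExpr (minimum count 10) were tested with edgeR 4.0.16 in R 4.3.3 (TMM, quasi-likelihood, no covariates, Benjamini-Hochberg threshold 0.05), tested beforehand on simulated data. CPM are TMM-scaled, and log2 CPM per library use an offset of 0.5. Intervals and alternatives used limma 3.58.1 and DESeq2 1.42.0. Library measures used 100000 resamples in SciPy.

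The gene lists and cell markers of the design needed gene names and were not used. The rule for named transcripts was the 2 smallest p-values in each direction past the threshold, at 1 CPM or more on average in each group, applied without the threshold. The members and lists were chosen with earlier results of these data known. Salmon divides reads between similar transcripts, and this uncertainty was not measured.

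ACLT and CON knees with the same number are different animals, so the numbers do not pair them. The 4 animals with both knees pair by design (deviation correlations from -0.04 to 0.12, mean -0.002 between different animals). The knee pairs cartilage with synovium. Of 121 library pairs within groups, 0 were identical, and the closest pair had a chi-square of 29.1 per degree of freedom.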

Additional observations from a re-analysis of the deposited data

Results flagged for a closer look

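The change after untreated transection differed between cartilage and synovium of the same knees for 708 transcripts, by the interaction test in edgeR at an adjusted p-value under 0.05. That test did not use the pairing by knee. Among the named transcripts, the log2 change in cartilage minus that in synovium was 0.73 for ENSSSCT00000004890.5, -2.64 for ENSSSCT00000054680.3 and -2.67 for ENSSSCT00000073328.2, all 3 past the same threshold. These values contain the cartilage change by which the transcripts were named, which makes up nearly all of the 0.73, so the threshold is no independent support for them. Of the 4 animals with both knees, 1 stood apart for ENSSSCT00000073328.2, with a log2 difference of -2.09 between ACLT 5 and CON 4 against -0.95 to -0.80 in the other animals. Chance alone sets 1 sample apart in about 1 in 20 groups of this size. Such differences were given for all 4 named transcripts, so at least 1 such case is likelier than that.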

How the results depend on the processing

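The count of 0 transcripts past the threshold in cartilage was found again with DESeq2 size factors in edgeR, a minimum count of 30, both limma fits, all 47 cartilage libraries in the fit, ACLT 12 added, and RIN or sex as a covariate. It became 50 with DESeq2, 9 with all 94 libraries in the fit, and 1 without a filter on low counts. It was also 1 with a filter that keeps transcripts counted in 2 or more libraries, a minimum that the paper set for its calls. The cause was not tested. Leaving out each library in turn gave 0 transcripts in each case, with a smallest adjusted p-value of 0.0545 without CON 6. With the animal as a replicate block, 0 transcripts passed on the 4 animals with both knees and 0 passed with limma's duplicateCorrelation over all 23 libraries (consensus correlation 0.205). The label number as a block also gave 0. With the knee as a block, the tissue difference passed for 800 transcripts instead of 708, and the block changed no other call. The synovium count was 2211 with its own filter and 2957 with DESeq2. The alternatives refit libraries that chose the 4 named transcripts, so a kept sign is no independent support. The named log2 fold changes kept their sign in all 38 alternatives each. Leaving out single libraries moved them between 0.62 and 0.77 for ENSSSCT00000089114.1, 0.66 and 0.78 for ENSSSCT00000004890.5, -1.22 and -1.06 for ENSSSCT00000054680.3, and -1.31 and -1.11 for ENSSSCT00000073328.2. It moved the median of the synovium-enriched list between 0.43 and 0.66, and that of the cartilage-enriched list between -0.10 and -0.06. With ACLT 12 added, the ACLT minus CON difference in the share of the 10 most abundant transcripts turned from -0.112 to 0.566 percentage points (adjusted p-value 0.884, permutation test). Intervals were widest under 10 CPM, and whether depth or the spread between knees sets their width was not tested.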
